A study of Mus musculus with 8 samples.

Results

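The cytosolic ribosomal protein genes were examined in keratinocytes cultured from mouse skin, the cells that form the epidermis, which carried either the wild-type allele or a HOIL1 allele lacking the RING1 domain. Genes were chosen by symbol: Rpl or Rps followed by a digit, or one of Rplp0, Rplp1, Rplp2, Rpsa and Fau. Of 105 symbols that matched this pattern, 10 Rps6k kinase genes and 6 symbols marked as pseudogene copies (-ps) were left out, which gave 89 candidates among 19457 genes. A mean level of at least 1 aligned base per Mb (megabase of the library's aligned bases) over the 8 libraries was reached by 87 of them, among 11870 genes that passed the same level, while Rpl39l and Rpl3l did not reach it and had no test. The 87 comprised 78 core ribosomal proteins, 46 of the large and 32 of the small subunit, 5 paralogues of core genes (Rpl22l1, Rpl7l1, Rpl36al, Rps27l and Rps4l), 3 further gene copies (Rpl32l, Rpl37rt and Rps27rt) and Rps19bp1. The last of these matches the pattern but encodes a protein that binds Rps19 and is not itself a ribosomal protein. All 87 were matched to a gene model by symbol.

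The cytosolic ribosome has a small subunit, which reads the mRNA, and a large subunit, which joins amino acids and passes the growing chain through an exit tunnel. Most of its proteins are needed in equal numbers, and many ribosomal protein mRNAs begin with a run of pyrimidines, the TOP motif, through which the kinase complex mTORC1 controls their translation. Several core genes have a second, expressed copy in the genome whose protein can take the place of the first, and basal keratinocytes, which divide, depend on a steady supply of new ribosomes.

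RNA was measured before the cultures reached confluence in 4 libraries of wild-type (WT) cells and 4 of HOIL1 ΔRING1 (HdR) cells, both taken from mouse skin. HOIL1, encoded by Rbck1, is a subunit of the complex that builds linear ubiquitin chains, and ΔRING1 names the missing domain. No Cre line, treatment, age, strain or zygosity was given in the sources used here, nor whether libraries of the same genotype stem from different mice, so p-values measure only the spread between these libraries. Each deposited value was coverage, the number of bases that reads laid over a gene. Here it was divided by the library's TMM-scaled total and is given as aligned bases per Mb (a level), and fold changes are HdR minus WT on the log2(level + 1) scale.

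WT libraries held 4.78 to 5.43 Gb of aligned bases and HdR libraries 2.31 to 4.31 Gb, so that depth and genotype cannot be told apart. Rbck1 coverage was 84.5, 89.1, 91.5 and 84.9 in WT and 43.6, 41.1, 45.2 and 44.8 in HdR. It differed beyond the spread (log2 fold change -0.99 ± 0.047 (SE), adjusted p = 7.25e-11), and where along the gene the coverage was lost was not analysed here. All 16 keratinocyte markers passed the level filter, with summed levels of 86087 to 91199 in WT and 86471 to 87935 in HdR. Of these 16, 5 were called higher and 4 lower in HdR (31.25% and 25%), against 21.2% and 23.8% of all genes tested. Markers of differentiated keratinocytes were lower in HdR (6 of 7 tested, summed 2177 to 2897 in WT and 1516 to 1741 in HdR), as were those of melanocytes (6 of 7, summed 52.4 to 60.8 and 27.4 to 29.6). Fibroblast, endothelial and muscle markers summed to at most 8.75 in any library. Of 10 haematopoietic markers in the table, Cd207, Lyz2 and Adgre1 were at 0 in all 8 libraries, and Cd68 and Itgam passed the filter and were called lower (list summed 52.3 to 66.1 in WT and 42.8 to 44.0 in HdR). Of 2 Schwann cell markers tested, 1 was lower (116 to 121 and 96.9 to 102). Their part in the results below was not tested, and in such bulk samples fewer cells of a type and less RNA per cell cannot be told apart.

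Ribosomal protein genes held several percent of the aligned bases in every library. The 87 genes together took 6.70, 6.52, 7.02 and 6.64% of all aligned bases in the WT libraries (mean 6.72 ± 0.212, SD, n = 4) and 6.36, 6.55, 6.21 and 6.43% in the HdR libraries (6.38 ± 0.141, n = 4). The 2 groups overlapped, since HdR 2 held a larger share than WT 2. Per kilobase of annotated exon, the mean core level ran from 70.9 for Rps15a to 3015 for Rplp1, with a median of 422. The annotation of several genes holds long alternative exons, so the principal transcript was taken as another length. Per kilobase of the principal transcript, which 73 of the 78 core genes have, the range was 85.8 to 3015 and the median 872. The lowest of these, Rps15a, rests on a principal transcript of 5179 bases, against a core median of 886, so annotation still enters this range. On the same scale the paralogues that passed the filter and have such a transcript had a median of 198. These were only Rpl7l1 (64.3), Rpl36al (198) and Rps27l (264). The median coefficient of variation of a core gene was 4.91% over the WT and 3.14% over the HdR libraries, against 6.43% and 5.82% for all genes tested.

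Most core genes stood slightly lower in HdR cells and none was called higher. Of the 78 core genes, 42 were lower in HdR at an adjusted p under 0.05 in limma's test and 36 were not called, and 55 had an unadjusted p under 0.05 in either direction. Among all 87 genes 44 were lower and 4 higher (Rpl36al, Rpl7l1, Rps19bp1 and Rps27l), while of all 11870 genes tested 45% were called, 23.8% lower and 21.2% higher. The median log2 fold change was -0.10 over the core genes and -0.01 over all genes, and the core values ran only from -0.22 to 0.10. Of the 87 point estimates, 77 lay below 0 (69 with upper-quartile scaling). No core gene passed a test against a fold change of 1.2, which 4.58% of all genes passed downwards and 2.89% upwards, and among the 87 Rpl22l1 alone passed it, downwards. Every HdR library was below every WT library for 35 of the 87 genes (21.3% of all genes), and the reverse held for 3 (19.8%). Both the 44 and the 35 include Rps27rt beside Rps27, although the coverage of these genes was the same. With upper-quartile scaling, which called 26.2% of all genes higher and 19.2% lower, 23 of the 87 were called lower and 5 higher.

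**Figure D1:**
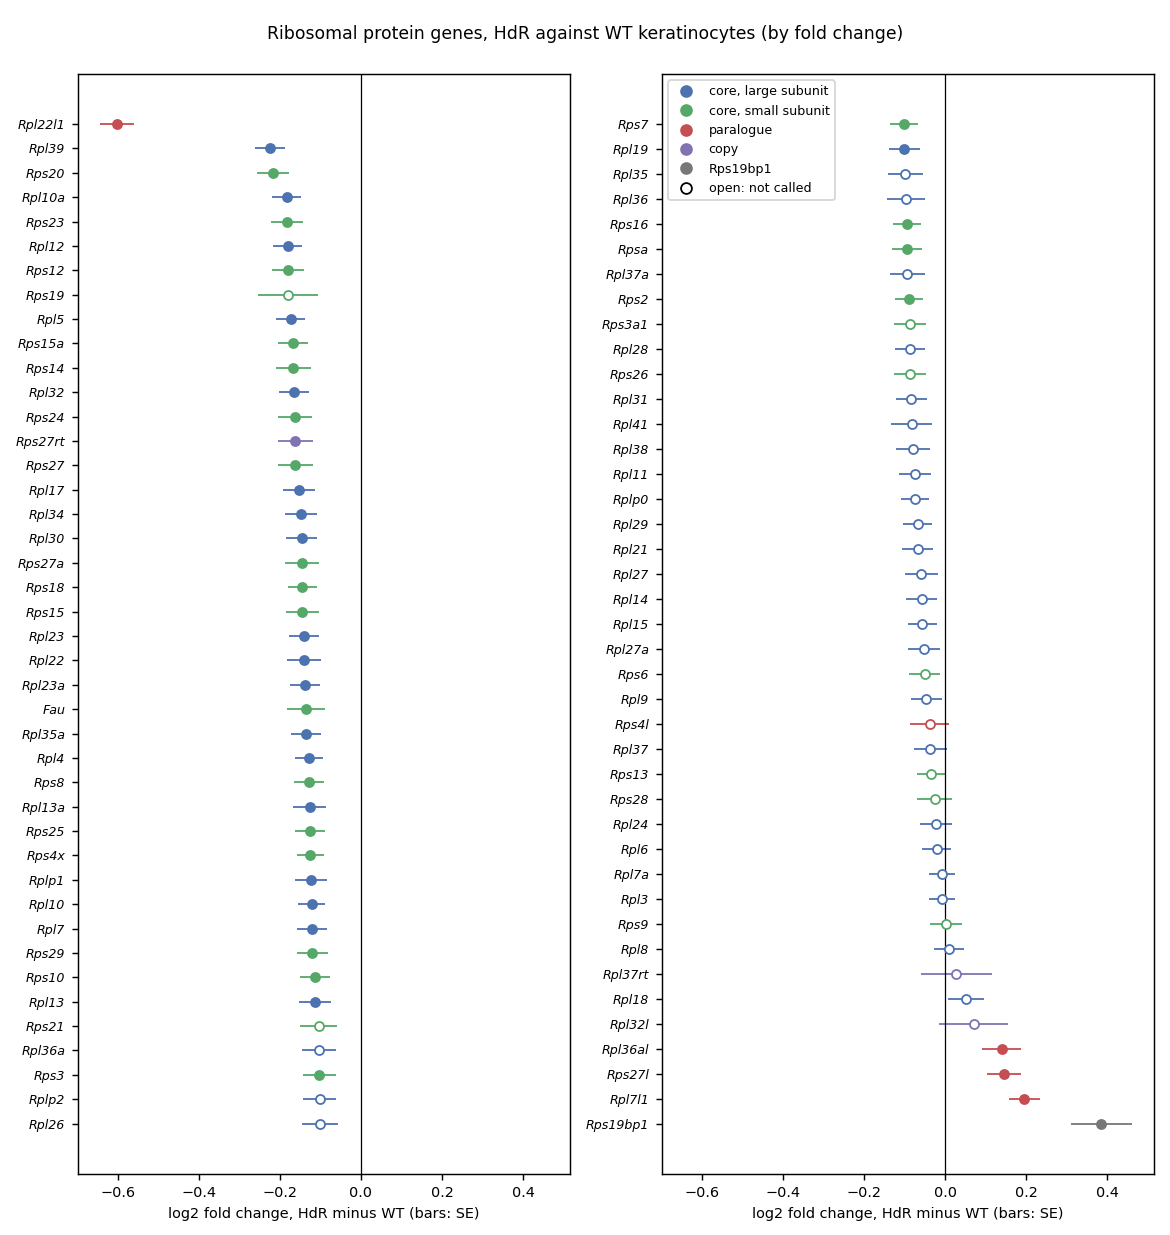
Log2 fold change (HdR minus WT) of 83 ribosomal protein genes with its standard error, 4 libraries per genotype, ordered from the lowest to the highest. Filled points passed an adjusted p under 0.05 and open points did not. The core genes drawn lie between -0.22 and 0.05, Rpl22l1 lies apart at -0.60, and the 4 genes called higher are 3 paralogues and Rps19bp1.

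In the small subunit 22 of 32 genes were called lower, against 20 of 46 in the large one, a difference that was not tested. The small subunit genes had a median log2 fold change of -0.12. Rps20, a protein of the small subunit head, stood at 747, 702, 795 and 737 in WT and 638, 659, 612 and 654 in HdR. Its groups did not overlap (log2 fold change -0.22 ± 0.040 (SE), adjusted p = 0.000276). Rps23 sits in the decoding centre, where codon and anticodon are matched, and was measured at 857, 819, 908 and 816 in WT and 773, 768, 709.8 and 744 in HdR. HdR was lower without overlap (log2 fold change -0.18 ± 0.040 (SE), adjusted p = 0.00136). Rps12, a protein of the beak of the small subunit, had 1174, 1092, 1212 and 1102 in WT and 1036, 1029.9, 948 and 1027 in HdR. The HdR 3 value was the lowest of the 8, and the other HdR libraries were still below all of WT (log2 fold change -0.18 ± 0.040 (SE), adjusted p = 0.00162).

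Among 5 genes for the mRNA entry and decoding region, Rps2, Rps3, Rps23 and Fau were called lower and Rps9 was not (log2 fold change 0.00, adjusted p = 0.966). Fau encodes a small subunit protein fused to a ubiquitin-like peptide. Its levels were 664, 612, 715 and 604 in WT and 591, 609, 567 and 589 in HdR, and the groups overlapped, WT 4 being below HdR 2 (log2 fold change -0.14 ± 0.047 (SE), adjusted p = 0.0258). Rps3 stood at 1342, 1259, 1423 and 1297 in WT and 1270.2, 1279, 1171 and 1232 in HdR, with overlapping groups and an adjusted p close to the threshold (log2 fold change -0.10 ± 0.041 (SE), adjusted p = 0.0472). Rps15, Rps16 and Rps18, whose proteins contact the tRNA in the P site, were all called lower, with log2 fold changes of -0.14, -0.09 and -0.14 and no overlap in any of them. All of Rps2, Rps3, Rps10 and Rps20, the small subunit proteins that receive ubiquitin when ribosomes stall, were called lower, with log2 fold changes from -0.22 to -0.09. The Rps2 groups overlapped (adjusted p = 0.041 in limma's test). Of all 32 core small subunit genes, 68.8% were called lower, and these role groups were formed after the values had been seen. Rpsa, also known as the laminin receptor precursor, stood at 1991, 1876, 2101 and 1934 in WT and 1843, 1906, 1813 and 1834 in HdR. WT 2 was within the HdR range (log2 fold change -0.09 ± 0.037 (SE), adjusted p = 0.045). The calls of Fau, Rps3 and Rpsa were lost without WT 1, WT 3, HdR 1, HdR 3 or HdR 4, with adjusted p of 0.0521 to 0.0821 for Fau, 0.0617 to 0.168 for Rps3 and 0.0877 to 0.116 for Rpsa, and under upper-quartile scaling (0.102, 0.228 and 0.256). With median-of-ratios scaling, library totals or thinned libraries Rps3 and Rpsa were not called either (adjusted p = 0.0588 to 0.0834). The log2 fold change of Fau was -0.09 without WT 3 and -0.08 after the GC and length correction.

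Rps27a is one of the genes from which cells make ubiquitin, as a fusion to the ribosomal protein. It was measured at 631, 592, 669.8 and 606 in WT and 550.0, 593, 536 and 578 in HdR, where HdR 2 and WT 2 were level (log2 fold change -0.15 ± 0.042 (SE), adjusted p = 0.00971). The call was lost under upper-quartile scaling (adjusted p = 0.0548).

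Rps6, the substrate of S6 kinase, was not called. It was measured at 801, 738, 821 and 776 in WT and 753, 788, 728 and 759 in HdR (log2 fold change -0.05 ± 0.038 (SE), adjusted p = 0.297), and HdR 2 exceeded 2 of the 4 WT libraries. Rps19, the gene most often mutated in Diamond-Blackfan anaemia, stood at 602, 575, 650.2 and 599.7 in WT and 545, 583, 566 and 455 in HdR. HdR 4 was far below the rest of its group, which widened the error (log2 fold change -0.18 ± 0.075 (SE), adjusted p = 0.0793), and without HdR 2 the gene was called lower (adjusted p = 0.0326). Without HdR 4 the log2 fold change was -0.10 (adjusted p = 0.0763). Of 9 genes known from Diamond-Blackfan anaemia, an inherited failure of red cell production, Rps24, Rpl35a, Rpl5, Rps7 and Rps10 were called lower and Rps19, Rpl11, Rps26 and Rpl26 were not. All 9 point estimates lay below 0, with a median of -0.11.

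In the large subunit 20 of 46 genes were called lower, with a median log2 fold change of -0.10. Rpl39, a small protein in the wall of the exit tunnel, had the lowest fold change of any core gene. Its levels were 431, 421, 468 and 435 in WT and 372, 379, 364 and 386 in HdR, with no overlap between the groups (log2 fold change -0.22 ± 0.038 (SE), adjusted p = 0.000122). Of 8 genes for the tunnel and its rim, Rpl39, Rpl4, Rpl17, Rpl19 and Rpl23a were called lower, and Rpl26, Rpl31 and Rpl35 were not. Rpl26 stood at 708, 657, 762 and 679 in WT and 631, 682, 624 and 677 in HdR (log2 fold change -0.10 ± 0.045 (SE), adjusted p = 0.0778). The groups overlapped, WT 2 being below HdR 2 and HdR 4.

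Rpl10a forms the mobile stalk through which spent tRNA leaves, and its levels were 727, 709, 775 and 706 in WT and 632, 662, 629 and 644 in HdR (log2 fold change -0.18 ± 0.036 (SE), adjusted p = 0.000586). No HdR library reached the WT range. Opposite that stalk lies a second one, which recruits the translation factors: Rpl12 at its base stood at 1160.2, 1142, 1238 and 1133 in WT and 1017, 1057, 997 and 1049 in HdR, without overlap (log2 fold change -0.18 ± 0.036 (SE), adjusted p = 0.000564). On it, Rplp0 had 2457, 2350.4, 2565 and 2376 in WT and 2299, 2388, 2278 and 2294 in HdR and was not called (log2 fold change -0.07 ± 0.035 (SE), adjusted p = 0.0927). Rplp1 was called lower at 1550.0, 1487, 1681 and 1556 in WT and 1428, 1482, 1374 and 1475 in HdR (log2 fold change -0.12 ± 0.039 (SE), adjusted p = 0.0174), although HdR 2 was only just below WT 2. Rplp2 was not called at 591, 547, 635 and 565 in WT and 545, 559, 536 and 535 in HdR (log2 fold change -0.10 ± 0.041 (SE), adjusted p = 0.0543), with overlapping groups. Within the stalk 2 of 4 genes passed, and all 4 point estimates lay between -0.18 and -0.07. Rplp1 was not called without HdR 1 or HdR 3 (adjusted p = 0.0519 and 0.0719) or under upper-quartile scaling (0.109), and Rplp0 and Rplp2 were called lower without WT 2 (0.0293 and 0.00901), Rplp2 also without WT 4 (0.0441).

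Rpl5 and Rpl11 bring the 5S rRNA into the large subunit and, when they are free, bind the p53 regulator Mdm2. Rpl5 stood at 1097, 1065, 1124 and 1042 in WT and 952, 992, 919 and 974 in HdR (log2 fold change -0.17 ± 0.035 (SE), adjusted p = 0.00073), every HdR library being below WT. Rpl11 was measured at 1046, 981, 1102 and 1035 in WT and 999, 1019, 937 and 998 in HdR, overlapped and was not called (log2 fold change -0.07 ± 0.039 (SE), adjusted p = 0.13). Around the peptidyl transferase centre, Rpl10, which joins the subunit late in its assembly, was called lower at 886, 856, 920.1 and 870.3 in WT and 803, 834, 804 and 805 in HdR (log2 fold change -0.12 ± 0.033 (SE), adjusted p = 0.00641). Rpl3 showed no difference beyond its spread at 1235, 1226, 1284 and 1233 in WT and 1210.0, 1269, 1219.7 and 1257 in HdR (log2 fold change -0.01 ± 0.032 (SE), adjusted p = 0.889), and Rpl8 had a fold change of 0.01. Rpl23, another protein that can bind Mdm2, was called lower at 955, 912, 1006 and 930.3 in WT and 859, 877, 833 and 879 in HdR (log2 fold change -0.14 ± 0.036 (SE), adjusted p = 0.00428). Rpl38, whose loss alters skeletal patterning in mice, was not called at 284, 268, 302 and 267 in WT and 269, 267, 253 and 271 in HdR (log2 fold change -0.08 ± 0.042 (SE), adjusted p = 0.137). Without WT 2, Rpl11 and Rpl26 were called lower (adjusted p = 0.0249 and 0.0205), and under upper-quartile scaling the call of Rpl10 was lost (0.0597).

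The core genes moved together from library to library. As log2 deviation from the WT mean, the median core gene stood at 0.00, -0.07, 0.09 and -0.02 in WT 1 to WT 4 and at -0.12, -0.06, -0.16 and -0.09 in HdR 1 to HdR 4. WT 2 was therefore slightly below HdR 2. WT 3 was above the WT mean in all 78 core genes and the highest of the 8 libraries in 77, WT 2 was below the WT mean in all 78, and HdR 3 was the lowest of the 8 in 60. After removal of the genotype means, the median correlation between a pair of core genes was 0.87 over the 8 libraries, which share their depth and scaling. The small subunit medians did not overlap between the genotypes (-0.07 to 0.09 in WT, -0.16 to -0.08 in HdR), and the large subunit medians did. With each library corrected for the GC content and exon length of its genes, the core medians were 0.00, -0.03, 0.05 and -0.02 in WT and -0.11, -0.07, -0.13 and -0.09 in HdR and no longer overlapped, and 55 of the 87 genes were called lower, 43 of them among the 44. With every library thinned to the read-pair equivalents of the smallest, 40 were called lower, 39 of them among the 44.

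**Figure D2:**
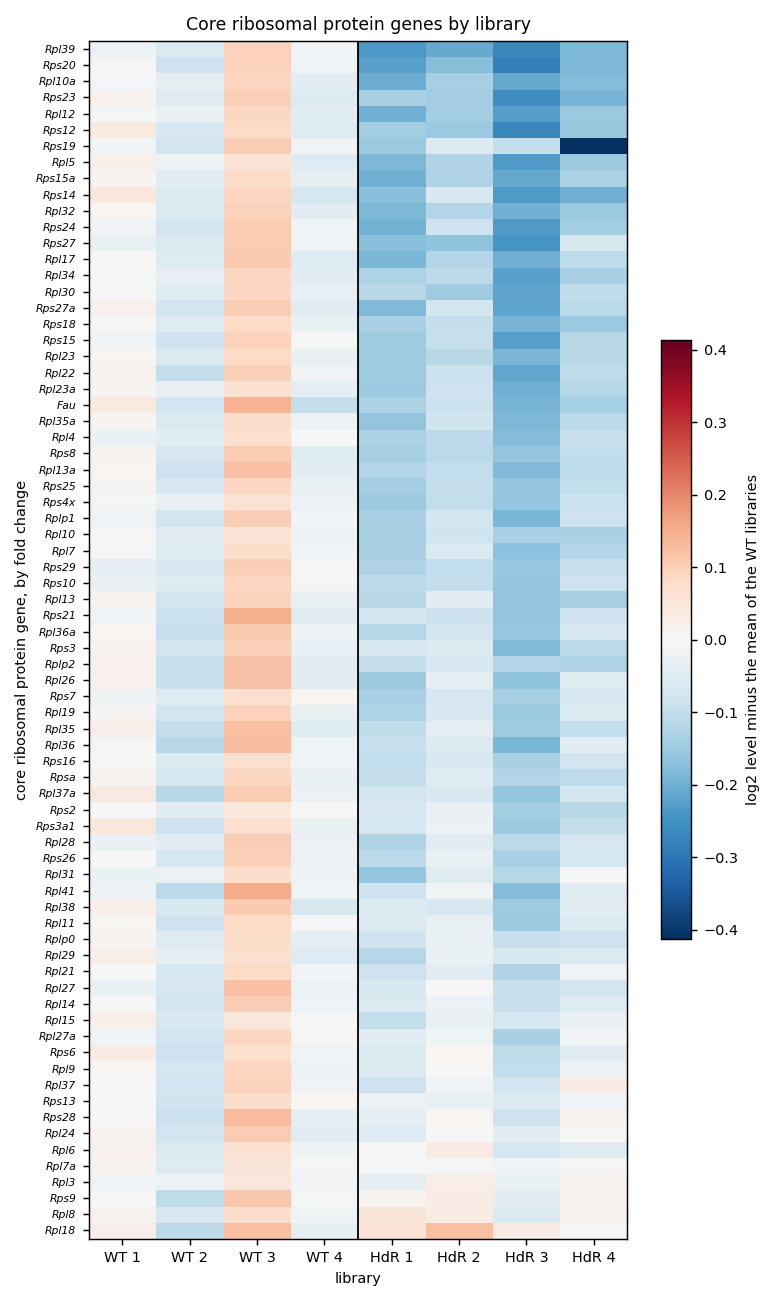
Log2 level of each of 74 core genes in each library minus the mean of the 4 WT libraries (colour), with genes ordered by fold change. The WT 3 column is above 0 and the WT 2 column below 0 in all 74 genes, HdR 3 is the lowest column in 58 of them, and HdR 4 is far below the rest for Rps19.

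For each of the 4 paralogues that were called, the ratio of its level to that of its core gene did not overlap between the genotypes. Rpl22l1, a protein-coding gene on chr3:28805436-28807424 (plus strand, 4 exons, GRCm38), encodes a close relative of Rpl22. It was lower than its WT level in every HdR library at 199, 194, 187 and 181 in WT and 121, 132, 120.3 and 127 in HdR. The level fell by 34.1% (log2 fold change -0.60 ± 0.042 (SE), adjusted p = 8.83e-09), and this was the gene that passed the test against a fold of 1.2. Exons of the predicted gene Gm33051 lie opposite it, and since the strand setting of the counting is not given, reads of the pair cannot be told apart. Rpl22 (chr4:152325742-152334071, plus strand) was called lower by less at 455, 422, 483 and 447 in WT and 407, 424, 389 and 419 in HdR (log2 fold change -0.14 ± 0.042 (SE), adjusted p = 0.0119), and HdR 2 was above WT 2. The Rpl22 call was lost without HdR 3 (adjusted p = 0.0513) and under upper-quartile scaling (0.0677). Per kilobase of exon, Rpl22l1 stood at 0.640, 0.673, 0.565 and 0.593 of the Rpl22 level in WT and at 0.434, 0.456, 0.453 and 0.443 in HdR. The log2 ratio fell by 0.46 ± 0.058 (SE; -0.50 to -0.42 with each library left out in turn).

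Rps27l moved the other way from Rps27. Rps27l (chr9:66946086-66949516, plus strand), a gene induced by p53, was measured at 125, 117, 133 and 125 in WT and 139, 141, 134 and 139.6 in HdR. It was called higher, and HdR 3 was just above WT 3 (log2 fold change 0.15 ± 0.042 (SE), adjusted p = 0.00877). Rps27 (chr3:90212522-90213651, minus strand) was called lower at 349.7, 343, 385 and 354 in WT and 317, 318, 301 and 342 in HdR (log2 fold change -0.16 ± 0.043 (SE), adjusted p = 0.00565). The ratio of the 2 levels per kilobase was 0.457, 0.435, 0.442 and 0.453 in WT and 0.559, 0.566, 0.567 and 0.522 in HdR, a log2 change of 0.31 ± 0.032. Rps27rt, a single-exon copy on chr9:114982366-114982739, held the same coverage as Rps27 to within 0.00517% in each library. Rps27rt is therefore no separate measurement, and which locus the reads came from cannot be told apart.

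Rpl7l1 (chr17:46773907-46782672, minus strand), a relative of Rpl7, was also called higher. It stood at 153, 152, 162 and 157 in WT and 177, 184, 184 and 171 in HdR, with all HdR libraries above all WT libraries (log2 fold change 0.20 ± 0.037 (SE), adjusted p = 0.000418). Rpl7 (chr1:16101295-16104662, minus strand) was called lower at 949, 918, 1002 and 942 in WT and 869, 913, 847 and 876 in HdR (log2 fold change -0.12 ± 0.036 (SE), adjusted p = 0.0111), a call that was lost under upper-quartile scaling (log2 fold change -0.08, adjusted p = 0.0856). Their ratio rose from 0.126 ± 0.00222 to 0.157 ± 0.0071 (SD, n = 4 each), a log2 change of 0.32 ± 0.034. Rpl36al (chr12:69182731-69184083, minus strand) was measured at 239.8, 219, 261 and 243 in WT and 256, 281, 257 and 266 in HdR. WT 3 was higher than HdR 1 and HdR 3, so these groups overlapped, although the gene was called (log2 fold change 0.14 ± 0.048 (SE), adjusted p = 0.0252). The call was lost without WT 1, WT 2, HdR 2 or HdR 4 (adjusted p = 0.0551 to 0.0926), and its exons share bases with the predicted gene Gm49383. Rpl36a (chrX:134585654-134588062, plus strand) was not called at 418, 388, 448 and 409 in WT and 383, 394, 372 and 398 in HdR (log2 fold change -0.10 ± 0.042 (SE), adjusted p = 0.0517), but was called lower without WT 2 (0.00785). The ratio of the pair did not overlap, with 0.702, 0.689, 0.714 and 0.728 in WT and 0.819, 0.872, 0.846 and 0.817 in HdR, a log2 change of 0.24 ± 0.028.

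The ratios were added after the values of the genes had been seen. Since the 4 pairs hold the paralogues that had been called, their ratios are given as a description, with no test. Apart from these pairs and Rps4l with Rps4x, no ratios were formed, so the share of other pairs without overlap is not known. Among single genes, 4879 of the 11870 tested did not overlap between the genotypes. The ratios per kilobase within a library do not depend on its depth scaling. Their log2 changes were taken on the log2(level + 1) scale, where the added 1 leaves a small dependence. Rps4l, annotated as a transcribed processed pseudogene related to Rps4x, was not called (log2 fold change -0.04, adjusted p = 0.549). Its ratio to Rps4x per kilobase was 0.0655, 0.0638, 0.0664 and 0.0663 in WT and 0.0709, 0.0695, 0.0706 and 0.0672 in HdR, a log2 change of 0.09 ± 0.022 (SE). These ratios did not overlap either, with a smaller change than in the other 4 pairs. Also not called were the pseudogene copies Rpl37rt (log2 fold change 0.03, adjusted p = 0.822) and Rpl32l (log2 fold change 0.07, adjusted p = 0.528). Rps19bp1 (chr15:80260615-80264315, minus strand), which binds Rps19 and the deacetylase Sirt1, stood at 25.7, 22.5, 30.9 and 25.2 in WT and 33.1, 35.7, 34.9 and 32.9 in HdR. This was the highest fold change among the 87 genes, from the lowest level of those called, and WT 3 was just below the HdR range (log2 fold change 0.39 ± 0.076 (SE), adjusted p = 0.000574).

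**Figure D3:**
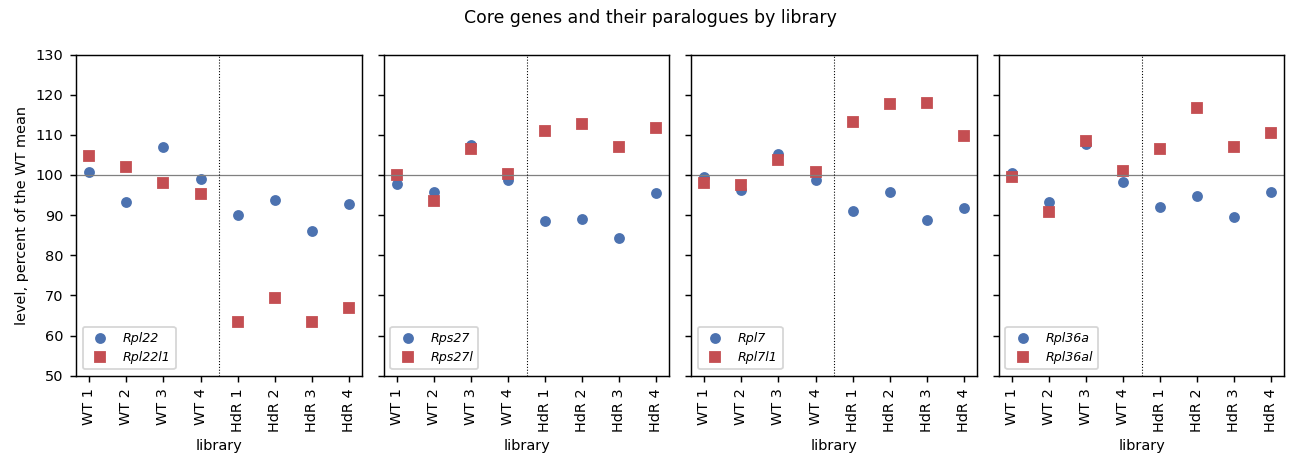
Level of a core gene (circles) and of its paralogue (squares) in each library, in percent of that gene's mean over the 4 WT libraries. Rpl22l1 lies below Rpl22 in all 4 HdR libraries, and Rps27l, Rpl7l1 and Rpl36al lie above their core genes in all 4.

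Nearly identical sequences and nested genes limit how exactly coverage can be given to a ribosomal protein gene. Of the 87 genes, 62 have copies named as pseudogenes in the annotation, 301 in all, with up to 24 for Rps12 and Rpl31. Small nucleolar RNA genes lie inside 30 of them, 58 in all, 18 have exons opposite another gene and 5 share exonic bases with a gene on their own strand. Opposite exons are annotated for these of the genes described above: Rpl22l1, Rpl10a, Rpl12, Rpl5, Rpl23a, Rpl31, Rpl35, Rps27a, Rps18, Rps10 and Rps2. How reads with several matches were counted is not given in the sources used here.

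Sequences around the start sites were compared because the run of pyrimidines at the 5′ end is what marks a TOP mRNA. RefSeq promoters on GRCm38.p6 were at hand for 68 of the 89 genes. A tract, here a C followed by at least 4 further C or T that begins within 10 bases of an annotated start, was found in 41 of the 68 (60.3%), against 34.4% of all promoters in the table. Start regions of 4 core genes and of the 4 paralogues that were called are shown from 40 bases before to 20 bases after the start, with the tract, where there is one, in capitals. Rps27 and Fau were called lower, Rps6 and Rplp2 were not, and all 4 have a tract of 9 to 16 bases at the start:
Rps27: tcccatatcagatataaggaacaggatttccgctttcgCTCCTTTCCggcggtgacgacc
Rps6: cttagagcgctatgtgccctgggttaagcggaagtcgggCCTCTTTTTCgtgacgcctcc
Rplp2: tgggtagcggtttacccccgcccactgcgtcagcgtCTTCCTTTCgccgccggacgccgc
Fau: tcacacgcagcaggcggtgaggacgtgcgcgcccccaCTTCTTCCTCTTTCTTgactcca
Among the paralogues Rpl22l1, which was called lower, has a tract of 8 bases, Rps27l, called higher, one of 7 bases that begins 10 bases before its start, and Rpl7l1 and Rpl36al, called higher, have none in this window:
Rpl22l1: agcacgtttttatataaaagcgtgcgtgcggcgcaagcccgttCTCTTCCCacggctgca
Rps27l: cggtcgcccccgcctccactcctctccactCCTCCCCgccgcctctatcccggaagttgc
Rpl7l1: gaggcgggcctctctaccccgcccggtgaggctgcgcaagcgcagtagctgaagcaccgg
Rpl36al: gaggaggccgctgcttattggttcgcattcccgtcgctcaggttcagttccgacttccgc
These lie, in the order shown, at chr3:90213629-90213688 (minus strand), chr4:86857348-86857407 (minus strand), chr7:141447611-141447670 (plus strand), chr19:6057907-6057966 (plus strand), chr3:28805468-28805527 (plus strand), chr9:66946046-66946105 (plus strand), chr17:46782637-46782696 (minus strand) and chr12:69184048-69184107 (minus strand).

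Of the core genes called lower, 18 of 29 with a promoter had the tract (62.1%), and of those not called 17 of 29 had it (58.6%), a difference that was not tested. Other short motifs were counted on both strands in the 300 bases around the start. CCGGAA, the core of ETS factor sites, was found in 52.9% of the 68 genes and 16.7% of all promoters, in 13 of 29 core genes called lower (44.8%) and in 19 of 29 not called (65.5%). AAGATGG, the core of YY1 sites, occurred in 16.2% and 7.28%, with 8 of 29 lower (27.6%) and 2 of 29 not called (6.90%). GGGCGG, bound by SP factors, was present in 60.3% of the genes, above the 38.2% of all promoters and below the 70.2% of the promoters of genes tested. TATAAA was present in 11.8%, below all promoters (15.7%) and above the genes tested (8.46%). CACGTG, the E-box bound by Myc and its partners, was present in 8.82%, against 8.09% of all promoters and 12.1% of the genes tested. Among the 9344 genes tested that have a promoter in the table, the tract was found in 37.4%, CCGGAA in 32.8% and AAGATGG in 8.5%, so that for these 3 the ribosomal protein genes lay above both backgrounds. Each count is a match of letters and not a measured site.

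Most of the genes that build ribosomes were called higher in HdR cells. Of 63 ribosome biogenesis factors, 53 were called higher and none lower by limma (54 had an unadjusted p under 0.05, and 1 was called lower without WT 4), with a median log2 fold change of 0.23. That was 84.1% called higher, against 21.2% of all genes tested, of which 23.8% were called lower. Ncl encodes nucleolin, an abundant nucleolar protein, and was measured at 1089, 1084, 1153 and 1180.4 in WT and 1565, 1514, 1562 and 1518 in HdR (log2 fold change 0.45 ± 0.035 (SE), adjusted p = 3.04e-08). Ddx18, a nucleolar helicase, stood at 91.4, 89.6, 93.2 and 93.5 in WT and 123, 121, 119.8 and 117 in HdR (log2 fold change 0.38 ± 0.037 (SE), adjusted p = 3.55e-07). For Nolc1, a nucleolar chaperone of small nucleolar RNPs, the levels were 172, 172, 171 and 171 in WT and 223, 222, 239.5 and 213 in HdR (log2 fold change 0.38 ± 0.038 (SE), adjusted p = 4.75e-07). In these 3 genes every HdR library was above every WT library. Rrs1 and Rpf2, which carry the 5S particle of Rpl5 and Rpl11 into the assembling subunit, were called higher as well, with log2 fold changes of 0.25 and 0.34, and are named here after their values were seen. In a test against a fold of 1.2, 6 of the 63 factors passed upwards, against 2.89% of all genes.

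Of 20 genes for RNA polymerase I, which transcribes the ribosomal RNA, and its factors, 8 were called higher and none lower by limma (median 0.12, with 10 at an unadjusted p under 0.05). The share called higher was 40%, against 21.2% of all genes, of which 23.8% were called lower. Polr1a, the largest subunit, stood at 74.8, 78.5, 73.6 and 75.2 in WT and 99.7, 92.2, 101 and 85.7 in HdR (log2 fold change 0.32 ± 0.050 (SE), adjusted p = 6.77e-05). Rrn3, which brings the polymerase to its promoter, and Polr1b, its second subunit, were called higher, with log2 fold changes of 0.23 and 0.27 and no overlap. Among 37 translation elongation and initiation factors 16 were called higher and 5 lower (43.2% and 13.5%, median 0.06). Eif2s2, a subunit of the factor that delivers the first tRNA, was lower at 433, 445, 449 and 412 in WT and 340.3, 344, 346 and 347 in HdR (log2 fold change -0.33 ± 0.035 (SE), adjusted p = 8.89e-07). Eif3b and Eif4g1, scaffolds of initiation, were called higher, with log2 fold changes of 0.27 and 0.26. Mitochondrial ribosomal protein genes, which serve a separate ribosome, were called higher in 30 of 78 and lower in 3 (38.5% and 3.85%, median 0.09).

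Other genes with a TOP start or a place on the ribosome did not move as one. Of 19 such genes, 4 were called higher and 6 lower (3 with upper-quartile scaling), with a median log2 fold change of -0.03. The shares were 21.1% and 31.6%, close to 21.2% for higher and above 23.8% for lower over all genes. Some of the 19, such as Eef1a1, are also counted among the translation factors, and Npm1 among the biogenesis factors. Tpt1, a classic TOP mRNA, was called lower at 1546, 1500.5, 1588 and 1472 in WT and 1234, 1285, 1218 and 1289 in HdR (log2 fold change -0.28 ± 0.035 (SE), adjusted p = 5.76e-06). Npm1, a nucleolar chaperone, was called higher at 956, 919, 993 and 1005 in WT and 1211, 1228, 1204 and 1222 in HdR (log2 fold change 0.33 ± 0.034 (SE), adjusted p = 8.37e-07), as was Nap1l1, a histone chaperone (log2 fold change 0.33). In the mTORC1 pathway 4 of 32 genes tested were called higher (7 with upper-quartile scaling, 2 without HdR 4) and 8 lower, with a median of -0.03. These were 12.5% and 25%, the latter close to the share of all genes called lower. Ddit4, a stress-induced inhibitor of the complex, was measured at 137, 128, 129 and 129 in WT and 60.6, 61.5, 53.1 and 57.8 in HdR (log2 fold change -1.15 ± 0.048 (SE), adjusted p = 1.39e-11). Eif4ebp1, the translation repressor that mTORC1 inactivates, stood at 265, 277, 272 and 254 in WT and 149, 158, 149 and 164 in HdR (log2 fold change -0.78 ± 0.041 (SE), adjusted p = 2.4e-10), and Sesn2, another inhibitor, was called lower (log2 fold change -0.41). Named for their smallest p, these genes do not stand for the whole list. Rheb and Lamtor2 were also called lower (log2 fold changes -0.26 and -0.35), and Deptor was called higher (0.15). Whether mTORC1 activity differed was not tested. Of 11 genes of the Myc network 2 were called higher (1 without HdR 3) and 5 lower, or 18.2% and 45.5%. Myc itself, a driver of ribosome production, was not called at 236, 247, 253 and 269 in WT and 259, 259.6, 265 and 272 in HdR (log2 fold change 0.07 ± 0.040 (SE), adjusted p = 0.155). Mxi1 and Mxd4, which compete with Myc for its partner, were called lower, with log2 fold changes of -0.47 and -0.29, and Mlx, a partner of related factors, was called higher (0.26).

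**Figure D4:**
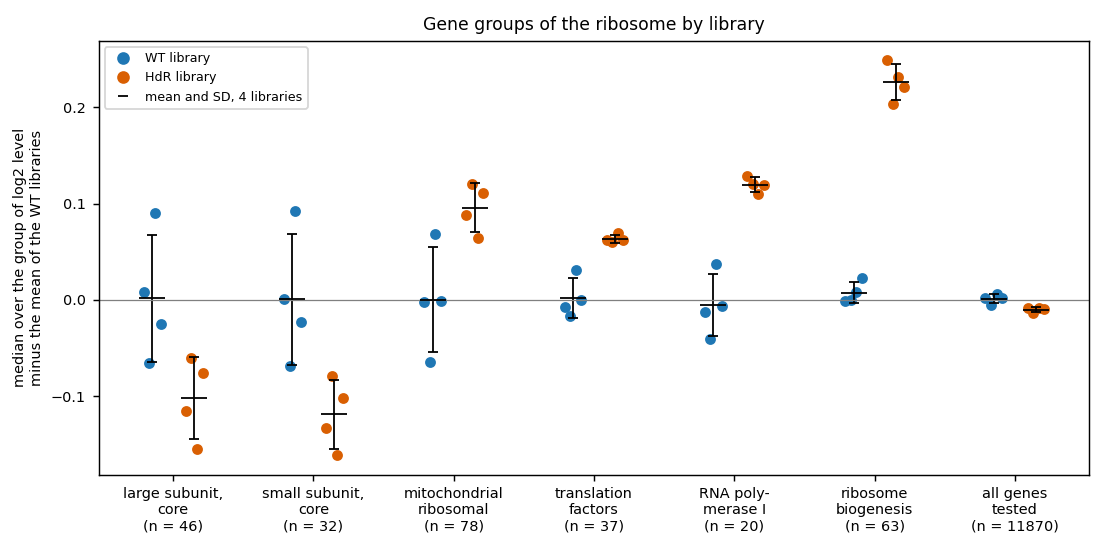
Median over the genes of a group of the log2 level minus the WT mean, for each WT and HdR library, with the mean and SD of the 4 libraries of a genotype. The core genes of both subunits lie lower in HdR, with overlap for the large subunit, and ribosome biogenesis factors lie at 0.20 to 0.25 in HdR, above all WT libraries.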

How the data were processed

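RNA-seq of 4 WT and 4 HdR mouse keratinocyte libraries was read from 1 table, which the authors deposited as signal: whole-number coverage, the sum of aligned bases per gene symbol (commonest value above 0: 302). Per the submitters' processing notes the reads were placed on GRCm38. Aligner, counting tool, strand setting and filters are not given in the sources used here. Libraries were grouped by title.

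Coverage was divided by TMM-scaled totals (trims of 30% and 5%) to give aligned bases per Mb. The 11870 genes whose mean reached 1 were tested on log2(level + 1) with limma 3.58.1 (lmFit, then eBayes with trend and robust options, R 4.3.3, statmod 1.5.0), two-sided, with Benjamini-Hochberg adjustment over all of them and a threshold of 0.05. Genes were joined by symbol to GENCODE vM21 (GRCm38) and to RefSeq promoters (GRCm38.p6), and plots were drawn with matplotlib 3.10.9. Tested on simulated data (11767 genes), the procedure recovered 90% of genes changed 1.5-fold and 98% of those changed 2-fold, and 18 of 206 calls were false (8.74%).

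Members, lists and role groups were chosen with earlier results of these data known, and the role groups within the ribosome and the ratios of paralogues after the values had been seen. Named were up to 10 called genes in each direction by fold change, genes fixed for their role, the 3 genes of each pathway list with the smallest p, and Rbck1. Genes given only within a role group are named as its members, and a few genes that met these rules are not reported here or drawn. Alternatives covered scaling, filter, pseudocount, replicate block, a test against a fold of 1.2, GC and length, depth and each library left out. Lengths of principal transcripts, ratios with libraries left out and core medians after GC and length correction were added after seeing the data. Protein sequences were not used here. Coverage is not a count of molecules, and no counting interval was formed.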

Additional observations from a re-analysis of the deposited data

Results flagged for a closer look

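In 5 of 102 groups of 4 libraries checked among the named genes, 1 library lay far from the other 3, with a gap above 0.829 of the whole range. Chance alone gives about 5% of groups. Rps12 was 948 in HdR 3 and 1027 to 1036 in the others. Rpl10 was 834 in HdR 2, against 803 to 805 in the others. In WT, Rpl3 was 1284 in WT 3 and 1226 to 1235 in the others, Polr1b was 70.6 in WT 2 against 63.9 to 64.9, and Ddit4 was 137 in WT 1 against 128 to 129. None of these single libraries reached the range of the other genotype in Rps12, Rpl10, Polr1b or Ddit4, while the Rpl3 groups overlapped.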

How the results depend on the processing

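The number of ribosomal protein genes called lower stayed between 32 and 55 under median-of-ratios scaling, library totals, TMM without these genes, other filters, pseudocounts of 0.1 and 5, GC and length correction, thinning and the replicate block. It was 23 under upper-quartile scaling and 1 in the test against a fold of 1.2, where the number called higher was 0. Their median log2 fold change ran from -0.10 to -0.06 over these settings and differed from the median of all genes by -0.09 under each scaling. That difference was -0.06 without WT 3 and -0.12 without WT 2, the ends of its range over the libraries left out. With each library left out in turn, 31 to 57 genes were called lower (31 without HdR 3, 57 without WT 2) and 3 to 6 higher, the median was -0.13 to -0.07, and the share of aligned bases differed by -0.404 to -0.238 percentage points. Libraries with the same replicate number did not deviate together (correlations of 0.03, -0.07, -0.22 and 0.02), so the numbers were not read as pairs. With the number as a block, 32 genes were called lower and 3 higher, and 3 of the other TOP genes were called lower in place of 6. The block left Rplp1, Rpl7, Rpsa, Rps3, Fau and Rpl36al without a call (adjusted p = 0.0519 to 0.126) and Rps19 called lower (0.0298). Upper-quartile scaling also called 3 of the other TOP genes lower, and it called 7 mTORC1 genes higher in place of 4. With no filter on low coverage, Rps3, Rpsa, Fau and Rpl36al were not called (adjusted p = 0.0716 to 0.0965). With the GC and length correction, Rplp0, Rplp2, Rpl11, Rpl26 and Rpl36a were called lower (0.00807 to 0.0428), and with thinning Rplp2 was (0.0335). No named gene that was called changed direction in any setting. Differences of this size are close to the spread between libraries, and HdR libraries were the shallower ones.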
